A study of Mus musculus with 15 samples.

Results

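The genes described here are the metallothioneins Mt1 and Mt2, the zinc uptake transporters Slc39a14 and Slc39a4, and the metal exporters Slc30a1 and Slc30a10. They were taken by symbol, and all 6 were found among the 24499 gene symbols of the deposited count tables. Whole-liver messenger RNA of adult male C57BL/6 mice had been sequenced as 15 libraries of 8 groups. The mice had or had not received carbon tetrachloride (CCl4), which injures hepatocytes, and ethanol, which was given through a gastric tube. CCl4 livers at day 0 (2 libraries, numbered 3 and 4 in the labels) came from mice given CCl4 at 0.2 ml/kg by intraperitoneal injection 2 times a week for 6 weeks. The arm without CCl4 is called OO, which the labels leave unexplained, and OO livers at day 0 are libraries 1 and 2. At day 20 there were CCl4 livers with ethanol (3 libraries, 18, 19 and 20), CCl4 livers with chow (2 libraries, 16 and 17), OO livers with ethanol (3 libraries, 13, 14 and 15) and an OO liver with chow (1 library, 12). The day 20 CCl4 arms had gone on receiving CCl4 at 0.5 of the first dose. At day 23 there was 1 OO library with ethanol (6) and 1 with chow (5). The labels place the day 23 libraries in study 2-3 and the day 20 libraries in study 2-4, with no such number at day 0. Labels of day 20 name OO or CCl4 again beside the chow or ethanol, and those of day 23 do not. Day and study therefore cannot be told apart. The ethanol dose was up to 25 g/kg per day and was kept up for 3 weeks. High-fat diet stands in the labels of the ethanol arms only, so ethanol and diet cannot be told apart in any ethanol comparison. Nothing in the labels ties each library to its own animal, and p-values therefore measure only how these samples scatter.

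The total of gene counts ranged from 10347844 to 28843258 per library, and each of the 6 genes had at least 47 counts in every library. Hepatocyte markers were abundant throughout, with 7 genes summing to between 46477 and 83541 CPM (counts relative to a TMM-scaled library size). A pair of libraries stood apart in transcripts of other organs. Summed over 15 genes of the exocrine pancreas, the level was 191 CPM in library 6 and 188 CPM in library 12, in both of which all 15 genes were detected. It was 5.52 to 14 CPM in the other libraries, where 5 to 13 of the 15 genes were at 0. Library 6 also held 1764 counts of Krt13, a keratin of squamous epithelium that had at most 1 count elsewhere. Library 12 is the only OO chow library at day 20. In whole liver, a lower level in bulk RNA can mean fewer cells that express a gene or less RNA per cell, and these cannot be told apart.

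Metallothioneins are small cysteine-rich proteins that hold zinc and copper in thiolate clusters and bind toxic metals such as cadmium. Their genes are switched on by the zinc sensor MTF1 through metal response elements (MREs), and in the liver also by glucocorticoids and by interleukin 6 through STAT3. Zinc enters cells through ZIP transporters, encoded by Slc39a genes, and leaves the cytosol through ZnT transporters, encoded by Slc30a genes. ZIP14 (Slc39a14) is the ZIP that hepatocytes raise in the acute-phase response, and it also carries iron and manganese.

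Mt1 (ENSMUSG00000031765) lies at chr8:94179082-94180327 and Mt2 (ENSMUSG00000031762) at chr8:94172664-94173568, both on the plus strand of GRCm38 (mm10) in the GENCODE M21 annotation, 5513 bases apart. Their coding sequences are shown because reads of so close a pair could in principle be assigned to the wrong gene. Each has 186 bases, stop codon included, and 20 of its 61 amino acid codons encode cysteine. In the lines below, from the GENCODE M21 transcripts and read 5′ to 3′, capitals mark the bases that differ between them.
Mt1: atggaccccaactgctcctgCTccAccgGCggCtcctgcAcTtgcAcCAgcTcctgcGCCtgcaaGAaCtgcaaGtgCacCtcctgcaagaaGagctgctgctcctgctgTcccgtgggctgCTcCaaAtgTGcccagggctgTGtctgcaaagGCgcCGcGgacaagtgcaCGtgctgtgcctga
Mt2: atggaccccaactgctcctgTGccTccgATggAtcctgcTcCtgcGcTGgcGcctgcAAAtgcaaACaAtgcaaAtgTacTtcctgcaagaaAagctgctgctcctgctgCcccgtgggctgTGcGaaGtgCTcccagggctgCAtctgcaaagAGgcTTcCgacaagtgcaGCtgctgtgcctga
The 2 sequences were identical at 148 positions (79.6%) and differed at 38. The longest stretch shared without a difference had 20 bases, also when the whole transcripts were compared. The start codon, most cysteine codons and the end of the reading frame were the same, and the differences were spread along the whole length.

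The 250 bases before the start sites of Mt1, Mt2 and Slc30a1, an exporter gene that is a known MTF1 target, are shown because Mt1 and Mt2 levels tracked each other across the libraries (Pearson's r = 0.91) and those of Slc30a1 tracked Mt1 less (0.42). The sequences are RefSeq's for GRCm38.p6, on the plus strand, at chr8:94178839-94179088, chr8:94172368-94172617 and chr1:191906531-191906780. Capitals mark each match to the MRE core, searched as TGCACNC and TGCGCNC on both strands.
Mt1: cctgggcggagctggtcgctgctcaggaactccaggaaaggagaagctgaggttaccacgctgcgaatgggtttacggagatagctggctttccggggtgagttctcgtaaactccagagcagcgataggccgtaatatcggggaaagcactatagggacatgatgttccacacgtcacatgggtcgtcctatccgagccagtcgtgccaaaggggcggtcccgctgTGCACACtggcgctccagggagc
Mt2: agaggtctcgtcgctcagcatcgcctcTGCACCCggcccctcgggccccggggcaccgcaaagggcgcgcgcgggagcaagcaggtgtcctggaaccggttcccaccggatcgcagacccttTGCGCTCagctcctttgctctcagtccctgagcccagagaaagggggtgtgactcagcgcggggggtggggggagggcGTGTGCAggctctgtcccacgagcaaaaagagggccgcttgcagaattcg
Slc30a1: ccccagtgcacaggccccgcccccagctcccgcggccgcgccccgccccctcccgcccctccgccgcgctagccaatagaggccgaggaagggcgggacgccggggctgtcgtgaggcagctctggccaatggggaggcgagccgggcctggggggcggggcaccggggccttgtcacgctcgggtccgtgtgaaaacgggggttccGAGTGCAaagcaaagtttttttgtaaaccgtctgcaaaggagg
Mt1 held 1 match, beginning 23 bases before the start, and Mt2 held 3, beginning 223, 128 and 50 bases before it. Slc30a1 held 1, beginning 43 bases before its start. The window of Slc30a10, which is not shown, held 2, with overlapping matches counted once. Its level had an r of -0.01 with that of Mt1. Past the window, the leader of the main GENCODE transcript held 4 more MRE cores in 229 bases for Mt1 and 3 more in 184 bases for Mt2. The shares of all promoters that follow cover the window before the start only. At least 1 such match was present in 21.4% of 32851 RefSeq promoter windows of this length, and at least 3 in 0.77%. The letters TGACNNNGC, the core of the antioxidant response element, occurred once each in the Mt2 and Slc30a1 windows and in 10.2% of all windows. The letters TTCNNNGAA, which STAT factors can bind, occurred in none of the 3 windows and in 7.02% of all windows. In GENCODE M21 other Mt1 transcripts start 129 and 159 bases farther down, and another Mt2 transcript 196 bases farther down, so the window depends on which start is used. These matches describe letters and do not show binding.

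The transporter genes lie apart from each other or on other chromosomes. Slc39a14 is at chr14:70303469-70351425 (minus strand), Slc39a4 at chr15:76612383-76617384 (minus), Slc30a1 at chr1:191906767-191913247 (plus) and Slc30a10 at chr1:185454848-185468762 (plus). Mt2, Slc30a1 and Slc30a10 overlap noncoding genes on the opposite strand (Gm45774, 1700034H15Rik and Gm2061) by 749, 761 and 721 bases. Use of strand in the counting is not given in the sources used here, so reads in these overlaps are of uncertain origin. Per kilobase of the main transcript, the median level over the 15 libraries was 303 CPM per kb for Mt1, 72.1 for Slc39a14, 64.8 for Mt2, 30.9 for Slc39a4, 10.1 for Slc30a10 and 9.86 for Slc30a1. Mt1 was thus the most abundant transcript of the 6 by this measure, and Slc39a14 had the highest median among the 14 ZIP genes and 10 ZnT genes. The metallothioneins also spread most: the highest library exceeded the lowest 34.9-fold for Mt1 and 82-fold for Mt2. The same ratio was 3.99 for Slc39a14, 3.16 for Slc30a10, 2.64 for Slc39a4 and 2.19 for Slc30a1.

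**Figure D1:**
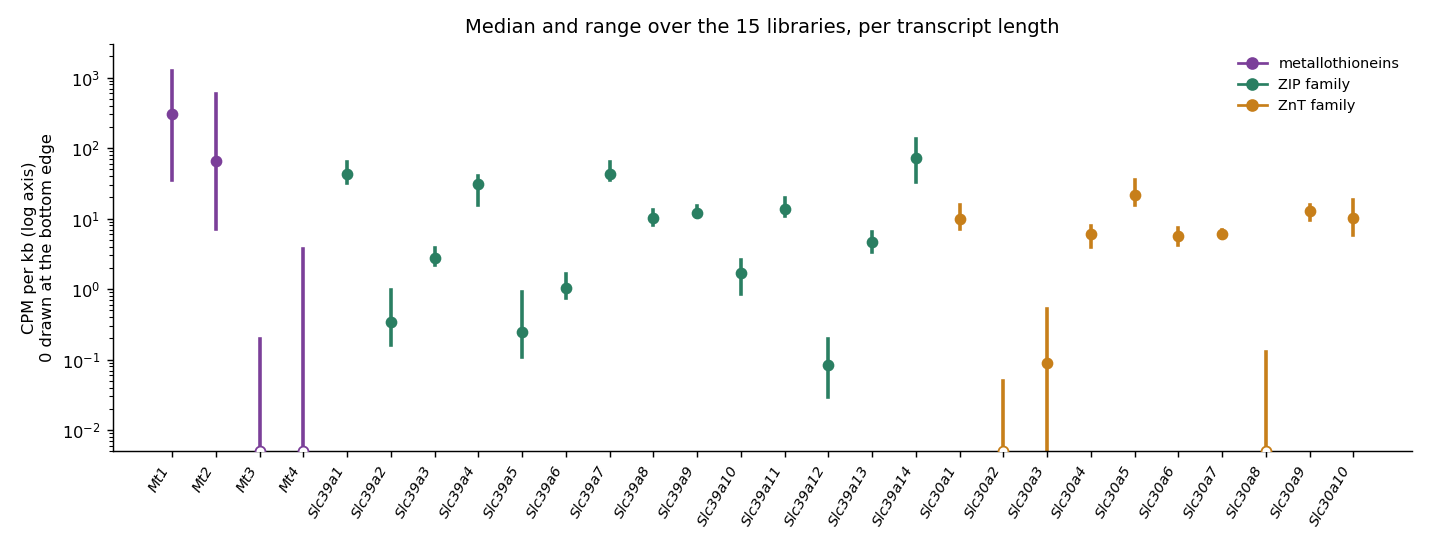
Level of 4 metallothionein, 14 ZIP and 10 ZnT genes in CPM per kilobase of transcript on a log axis. Points are medians over the 15 libraries and bars run from the lowest to the highest library; open points at the bottom edge mark medians of 0. Mt1 has the highest median, 303 CPM per kb, and Slc39a14 the highest of the transporters, 72.1 CPM per kb.

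Mt1 and Mt2 were at their lowest in livers that had received CCl4 without ethanol. Mt1 stood at 19.5 and 22.2 CPM in the CCl4 livers at day 0, against 572 and 313 CPM in the OO livers at day 0. Mt2 stood at 3.63 and 4.65 CPM in the CCl4 livers, against 117 and 33.1 CPM in the OO livers. For both genes the CCl4 libraries lay below the OO libraries without overlap, and the OO libraries differed from each other by more than the CCl4 libraries did. Mt1 fell 21.2-fold (log2 change -4.41 ± 0.72 SE, n = 2 in each, adjusted p = 0.00959 over 14778 genes in edgeR's quasi-likelihood test). Mt2 had a log2 change of -4.19 ± 1.13 that did not pass (adjusted p = 0.0823). Mt1 was the only one of the 6 genes that passed at day 0, where 2.06% of all genes tested were called and 1.11% were called lower. The call for Mt1 was lost without library 3 (adjusted p = 0.138) or library 4 (0.125), each of which left a single CCl4 library. With DESeq2 4 of the 6 genes passed at day 0, all lower: Mt1, Mt2 (adjusted p = 0.00632), Slc39a4 (0.00483) and Slc39a14 (0.0438). The shares of all genes given above are those of edgeR's main fit, which called 304. Alternative fits that kept every library of both groups, DESeq2 among them, called 231 to 2240 of all genes at day 0.

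**Figure D2:**
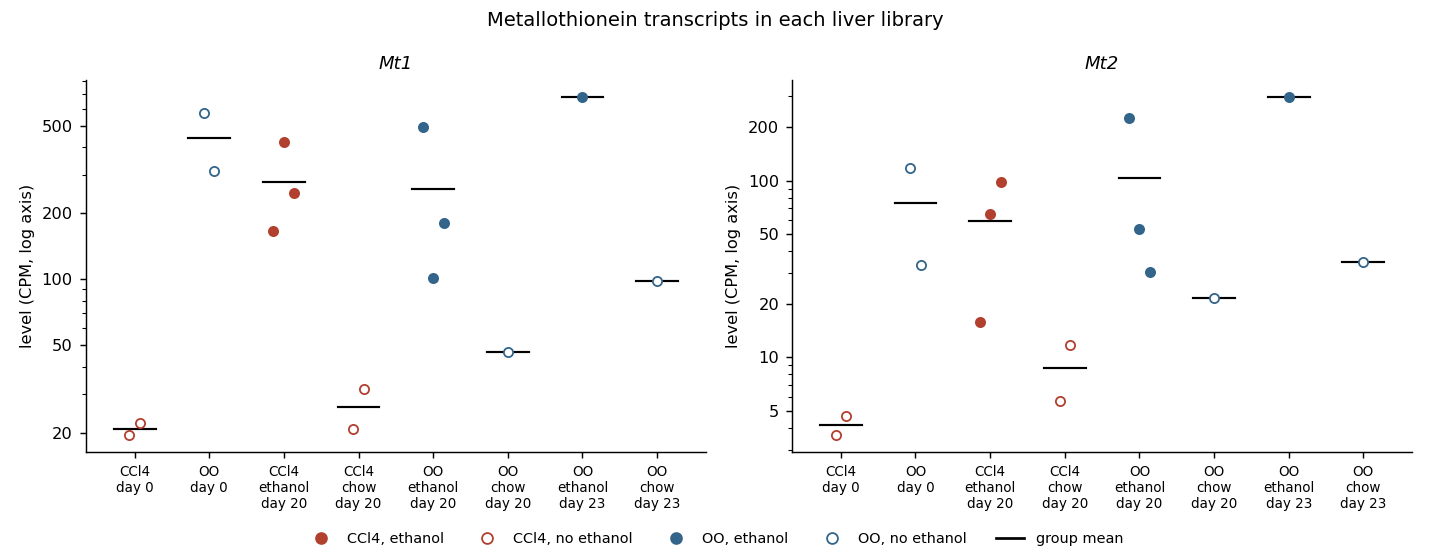
Mt1 (left) and Mt2 (right) level in CPM on a log axis, 1 point per library, by group; filled points are ethanol livers and horizontal lines are group means. The CCl4 livers without ethanol lie at 19.5 to 31.8 CPM for Mt1 and 3.63 to 11.8 CPM for Mt2, below every other library of the plot.

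With ethanol, CCl4 livers held more Mt1 than CCl4 livers with chow. Mt1 stood at 166, 421 and 249 CPM in the CCl4 ethanol libraries, against 20.9 and 31.8 CPM in the CCl4 chow libraries. Mt2 stood at 15.9, 64.6 and 97.7 CPM in the CCl4 ethanol libraries, against 5.63 and 11.8 CPM in the CCl4 chow libraries. All ethanol libraries exceeded all chow libraries for both genes, although library 18 came close to the chow livers for Mt2. Mt1 rose 10.6-fold (log2 change 3.40 ± 0.66 SE, n = 3 and 2, edgeR, adjusted p = 0.0326). Mt2 had a log2 change of 2.75 ± 0.98 and an adjusted p of 0.274. Mt1 was again the only one of the 6 genes that passed, where 1.27% of all genes were called and 0.501% were called higher. Leaving out library 16, 17, 19 or 20 ended the call for Mt1 (adjusted p = 0.303, 0.151, 0.0674 and 0.0691), with log2 changes of 2.97 to 3.76.

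In OO livers at day 20 the 3 ethanol libraries lay above the single chow library for Mt1 and Mt2, but no member passed. How many of all genes separate from that library in this way was not counted. Mt1 stood at 497, 101 and 181 CPM in the OO ethanol libraries at day 20, against 46.7 CPM in the OO chow library, and Mt2 at 226, 53.4 and 30.4 CPM, against 21.8 CPM. Over 10 Kupffer cell and macrophage genes the summed level was 767 to 1009 CPM in these ethanol libraries and 1976 CPM in the chow library, and its part in these values was not tested. Library 13 was the highest of the 3 ethanol libraries for both genes. The log2 change was 2.47 ± 0.84 SE for Mt1 (adjusted p = 0.136, unadjusted 0.013, by edgeR) and 2.24 ± 1.25 for Mt2 (adjusted p = 0.364). None of the 6 genes was called by edgeR or by DESeq2, where edgeR called 3.64% of all genes. By edgeR 1 had an unadjusted p under 0.05, as did 2786 of all 14778 genes tested. The chow side is the single library 12, and with the day 23 chow library in its place the log2 change of Mt1 was 1.40 and that of Mt2 1.58.

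The contrast of CCl4 with OO was not the same in size at each stage, but the difference between stages did not pass. Under ethanol at day 20 Mt1 averaged 279 ± 130 CPM in CCl4 livers and 260 ± 209 CPM in OO livers (SD, n = 3 each) (edgeR, log2 change 0.10 ± 0.50 SE, adjusted p = 0.909). Mt2 averaged 59.4 ± 41.2 CPM in CCl4 livers and 103 ± 107 CPM in OO livers (adjusted p = 0.491). The libraries of both arms overlapped, and none of the 6 genes passed by edgeR or DESeq2, where 23.7% of all genes were called. None of the 6 had an unadjusted p under 0.05 by edgeR, where 5283 of all 14778 genes tested did. Under chow Mt1 averaged 26.4 ± 7.69 CPM in 2 CCl4 livers and was 46.7 CPM in the OO liver (log2 change -0.82 ± 0.76 SE, adjusted p = 0.919). None of the 6 genes passed there by edgeR or DESeq2, and 0.189% of all genes were called. None had an unadjusted p under 0.05 by edgeR, where 1018 of all 14778 genes tested did. For Mt1 the log2 change with CCl4 was less negative under chow at day 20 (-0.82) than at day 0 (-4.41). The difference of 3.59 ± 1.08 SE did not pass adjustment (unadjusted p = 0.00634, adjusted p = 0.43). The CCl4 by ethanol interaction at day 20 was 0.93 ± 0.91 for Mt1 (adjusted p = 0.909) and 0.51 ± 1.42 for Mt2 (0.99). It was called for none of the 6 genes by edgeR or DESeq2 and for 0.0135% of all genes. By edgeR 1 member had an unadjusted p under 0.05, as did 1215 of all 14778 genes tested. CCl4 livers with ethanol against the OO chow liver gave a log2 change of 2.58 ± 0.85 for Mt1 (edgeR, adjusted p = 0.135). None of the 6 genes passed there by edgeR or DESeq2, and 2.8% of all genes were called. By edgeR 1 of the 6 was under an unadjusted p of 0.05, as were 2667 of all 14778 genes tested.

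Levels of CCl4 livers at day 20 were also set against those of CCl4 livers at day 0. In CCl4 livers with ethanol, Mt1 rose 13.4-fold over CCl4 livers at day 0, with 166, 421 and 249 CPM at day 20 against 19.5 and 22.2 CPM at day 0 (log2 change 3.74 ± 0.67 SE, n = 3 and 2, edgeR, adjusted p = 0.00272). Mt2 rose 14.4-fold, with 15.9, 64.6 and 97.7 CPM at day 20 against 3.63 and 4.65 CPM at day 0 (log2 change 3.85 ± 1.08, adjusted p = 0.0262). The groups did not overlap for either gene. In CCl4 livers with chow the log2 change was 0.34 ± 0.65 for Mt1 (adjusted p = 0.776) and 1.10 ± 1.13 for Mt2 (0.581). Of the 6 genes, 4 were called higher with ethanol, where 20.7% of all genes were called and 11.6% were called higher. With chow 1 was called higher, where 11.5% were called and 7.27% were called higher. Of the members called with ethanol, Mt1 stayed called without any single library, and 3 were lost without library 3 or without library 4. The call for Mt2 was also lost without library 20 (adjusted p = 0.0651) and with limma-voom and lane as a block (0.113). The table names give a sequencing lane, and within lanes the CCl4 ethanol library exceeded the day 0 library 21.5-fold and 11.2-fold for Mt1, and 17.8-fold and 21-fold for Mt2. Of the other comparisons only CCl4 ethanol against OO chow shared a lane, where Mt1 was 9.01 times as high in library 19 as in library 12. For the rest lane and group cannot be told apart.

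**Figure D3:**
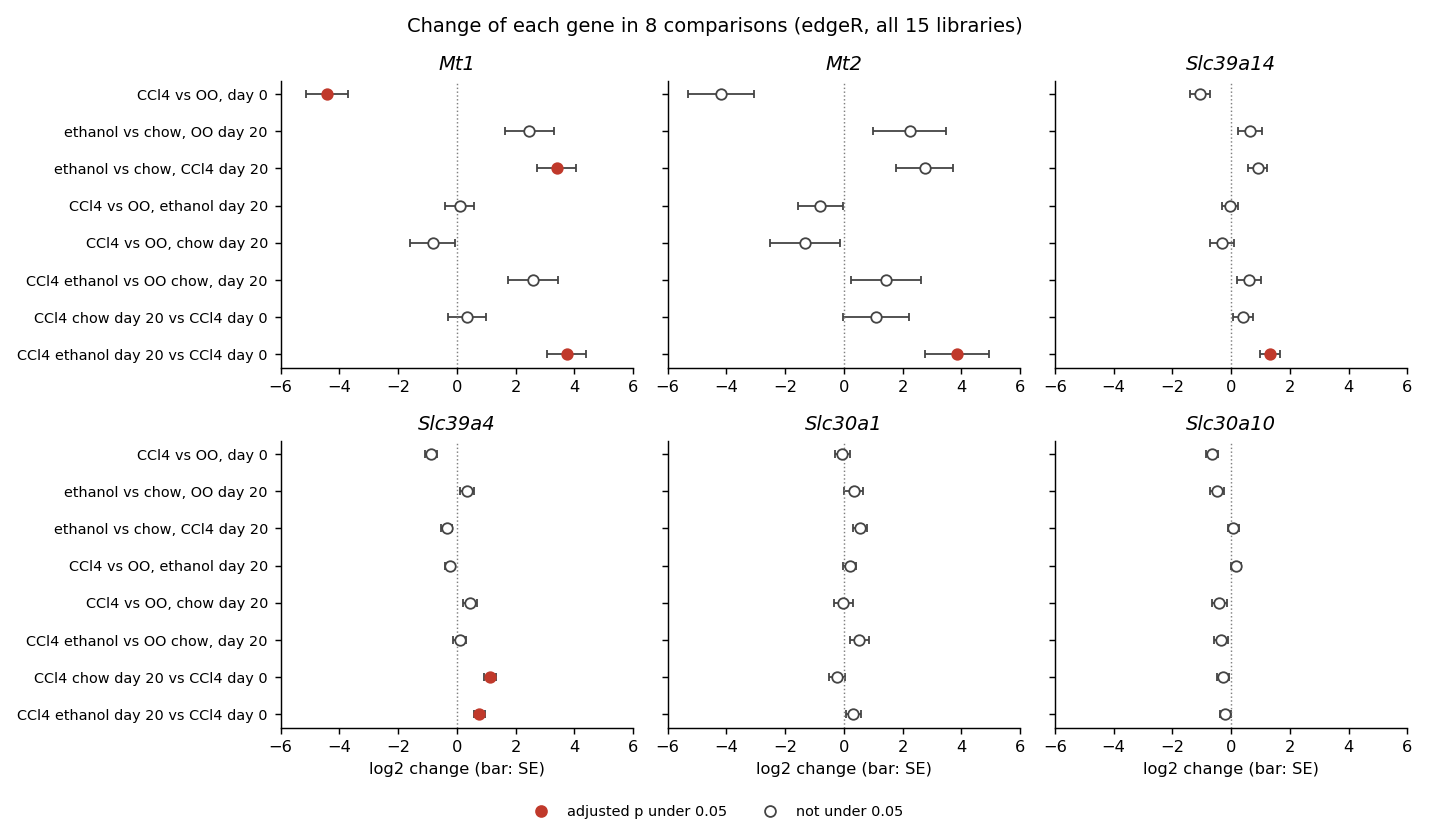
Log2 change of each of the 6 genes in 8 comparisons, the first-named group over the second, with bars of 1 SE; filled points have an adjusted p under 0.05. Mt1 has 3 filled points, Slc39a4 has 2, Mt2 and Slc39a14 have 1 each, and the exporters Slc30a1 and Slc30a10 have none.

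Ordered by group mean, Mt1 ran from 681 CPM in the day 23 ethanol library through OO at day 0 (442), CCl4 with ethanol (279), OO with ethanol at day 20 (260), the chow libraries of day 23 (98) and day 20 (46.7) and CCl4 with chow (26.4) to CCl4 at day 0 (20.8). The libraries of OO at day 0, CCl4 with ethanol and OO with ethanol at day 20 overlapped with their neighbours in this order, as did those of the last pair. OO livers thus spanned a wide range without CCl4, with 46.7 and 98 CPM in the later chow libraries and 313 and 572 CPM at day 0. For Mt2 the order was the day 23 ethanol library (298), OO with ethanol at day 20 (103), OO at day 0 (75), CCl4 with ethanol (59.4), the chow libraries of day 23 (34.5) and day 20 (21.8), CCl4 with chow (8.72) and CCl4 at day 0 (4.14). The ratio of Mt1 to Mt2 counts was not constant. It was 10.5 (exact 95% interval 9.43 to 11.7) in library 18, 6.51 in library 19 and 2.55 (2.38 to 2.73) in library 20, all CCl4 livers with ethanol. In OO livers with ethanol it was 2.2, 1.9 and 5.95, and in OO livers at day 0 it was 4.89 and 9.45. The intervals cover counting error only, and libraries of a single group differed by more than that.

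Slc39a14, the zinc, iron and manganese importer ZIP14, had a narrower range than the metallothioneins. It stood at 164 and 168 CPM in CCl4 livers at day 0, its lowest group, against 370 and 321 CPM in OO livers at day 0, without overlap. The log2 change was -1.06 ± 0.35 SE and did not pass (n = 2 in each, edgeR, adjusted p = 0.146). In CCl4 livers with ethanol at day 20 it stood at 355, 508 and 379 CPM, and it rose 2.49-fold over CCl4 livers at day 0 (log2 change 1.32 ± 0.33, adjusted p = 0.0155). Those ethanol libraries also lay above the 233 and 206 CPM of CCl4 livers with chow, without overlap, but that difference did not pass (log2 change 0.91 ± 0.32, adjusted p = 0.272). In OO livers at day 20 the ethanol libraries, at 656, 248 and 363 CPM, lay on both sides of the chow library at 273 CPM (log2 change 0.63 ± 0.41, adjusted p = 0.448). The rise over day 0 was lost without library 3 (adjusted p = 0.114) or library 4 (0.107).

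Slc39a4, encoding ZIP4, the importer that takes up dietary zinc in the intestine, was called in CCl4 livers at day 20 whether they had ethanol or chow. It stood at 112 and 84.8 CPM in CCl4 livers with chow at day 20, against 48 and 42.6 CPM in CCl4 livers at day 0, a 2.18-fold rise (log2 change 1.12 ± 0.20 SE, n = 2 in each, edgeR, adjusted p = 0.0067). With ethanol it stood at 95.2, 62.1 and 75.1 CPM and rose 1.71-fold over day 0 (log2 change 0.77 ± 0.19, adjusted p = 0.0133). All day 20 libraries of both arms lay above both day 0 libraries. At day 0 the CCl4 libraries lay below the 76.6 and 89.2 CPM of the OO livers (log2 change -0.87 ± 0.20, adjusted p = 0.0529), just short of the threshold. The ethanol and chow arms overlapped in CCl4 livers (log2 change -0.35 ± 0.18, adjusted p = 0.509). In OO livers at day 20 the ethanol libraries, at 88.3, 86.4 and 99.5 CPM, lay above the chow library at 72.2 CPM (log2 change 0.34 ± 0.24, adjusted p = 0.476). The interaction of CCl4 and ethanol was -0.69 ± 0.30 for Slc39a4, with an unadjusted p of 0.0415 and an adjusted p of 0.567. Both calls over day 0 were lost without library 3 (adjusted p = 0.0581 with chow and 0.0689 with ethanol) or library 4 (0.0821 and 0.129).

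**Figure D4:**
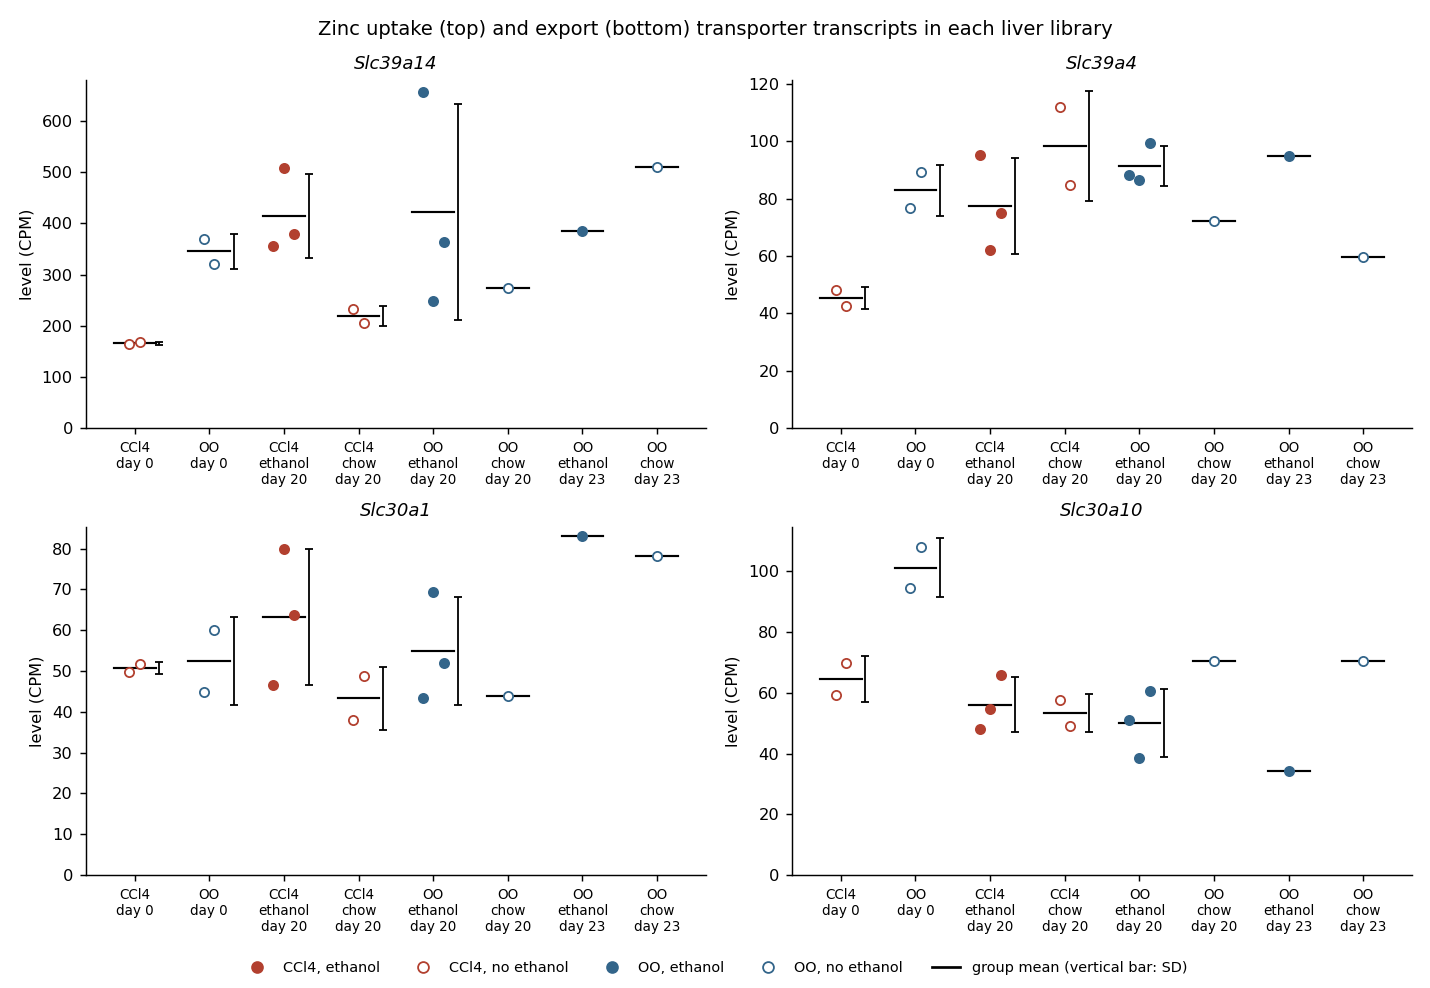
Level of the importers Slc39a14 and Slc39a4 (top) and the exporters Slc30a1 and Slc30a10 (bottom) in CPM, 1 point per library, by group; horizontal lines are group means and vertical bars SD for groups with more than 1 library. Slc39a14 and Slc39a4 are lowest in CCl4 livers at day 0, at 164 to 168 CPM and 42.6 to 48 CPM.

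Slc30a1, encoding ZnT1, the zinc exporter of the plasma membrane, was called in no comparison by edgeR or DESeq2 and had an unadjusted p under 0.05 in 1. It stood at 49.7 and 51.7 CPM in CCl4 livers at day 0, against 44.8 and 60.1 CPM in OO livers (edgeR, log2 change -0.05 ± 0.27 SE, adjusted p = 0.96). In CCl4 livers with ethanol it stood at 46.5, 79.8 and 63.7 CPM, against 37.9 and 48.7 CPM with chow (log2 change 0.55 ± 0.25, adjusted p = 0.419). The groups overlapped in both contrasts. The lowest and highest libraries over all groups were 16, at 37.9 CPM, and 6, at 83 CPM.

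Slc30a10, encoding a manganese exporter of the ZnT family, was likewise called in no comparison by edgeR or DESeq2 and had an unadjusted p under 0.05 in 1. It stood at 59.1 and 69.9 CPM in CCl4 livers at day 0, against 94.4 and 108 CPM in OO livers at day 0, which was its highest group. The log2 change was -0.65 ± 0.21 SE (edgeR, adjusted p = 0.135). At day 20 it stood at 50.9, 38.6 and 60.7 CPM in OO livers with ethanol, against 70.3 CPM with chow (log2 change -0.49 ± 0.24, adjusted p = 0.297). In CCl4 livers it stood at 48, 54.6 and 65.7 CPM with ethanol, against 57.7 and 49 CPM with chow, and the groups overlapped (log2 change 0.07 ± 0.19, adjusted p = 0.93). Slc30a10 was the only one of the 6 genes whose highest library was at day 0 in OO livers.

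Few of the other genes of both transporter families were called. Of 14 ZIP genes 13 were tested, and of 10 ZnT genes 8 were tested. ZnT genes were called by edgeR in none of the 9 comparisons, with at most 2 under an unadjusted p of 0.05 in any of them. DESeq2 called Slc30a5 lower in CCl4 than in OO livers at day 0 (adjusted p = 0.00924) and Slc30a3 higher in CCl4 than in OO livers under ethanol (0.0417). Slc30a3 was near 0 there, with 8, 1 and 13 counts in the CCl4 libraries and 0, 0 and 1 in the OO libraries. Under ethanol at day 20, 2 ZIP genes were higher in CCl4 than in OO livers, where 12.7% of all genes were called higher. Slc39a10, a plasma membrane zinc importer, averaged 11.8 ± 2.53 CPM in CCl4 livers and 7.33 ± 0.619 CPM in OO livers (SD, n = 3 each, log2 change 0.68 ± 0.17 SE, edgeR adjusted p = 0.014). Slc39a6, encoding a closely related importer, averaged 5.49 ± 0.749 CPM in CCl4 livers and 3.42 ± 0.522 CPM in OO livers (log2 change 0.69 ± 0.19, adjusted p = 0.0219). The call was lost without library 18 for Slc39a10 (adjusted p = 0.063), and without library 14, 15 or 19 for Slc39a6 (0.0871, 0.0643 and 0.059). Slc39a8, the family member most like Slc39a14, was the exception in direction among the ZIP genes called by edgeR. It stood at 28.5, 28.6 and 29 CPM in CCl4 livers with ethanol at day 20, against 39.1 and 40.9 CPM in CCl4 livers at day 0. It fell 1.39-fold (log2 change -0.48 ± 0.14, edgeR adjusted p = 0.0294). DESeq2 also called Slc39a7, higher with ethanol in OO livers at day 20 (adjusted p = 0.0389). Under ethanol DESeq2 called Slc39a7 lower in CCl4 than in OO livers (0.0457). The call for Slc39a8 was lost when any library of either group was left out (adjusted p = 0.0542 to 0.174). Mtf1, the zinc sensor that drives metallothionein genes, ran only from 17.1 to 24.8 CPM over all libraries and was called in no comparison. Among 7 regulators, edgeR called only Nfe2l2, encoding the oxidative stress factor NRF2. DESeq2 also called Keap1, encoding the protein that holds NRF2 back, higher with ethanol in OO livers at day 20 (adjusted p = 0.0278 by DESeq2 and 0.0826 by edgeR). Nfe2l2 averaged 132 ± 22.1 CPM in CCl4 livers with ethanol and 78.6 ± 14.2 CPM in OO livers with ethanol (log2 change 0.75 ± 0.18, edgeR adjusted p = 0.0113). In CCl4 livers Nfe2l2 rose over day 0 with ethanol (log2 change 0.82 ± 0.20, adjusted p = 0.0149) and with chow (0.84 ± 0.22, adjusted p = 0.0322). The call over day 0 with chow was lost when any of its 4 libraries was left out (adjusted p = 0.0704 to 0.19). The call over day 0 with ethanol was lost without library 3 (0.0893), 4 (0.124) or 18 (0.0538), and that between CCl4 and OO under ethanol without library 15 (0.0504) or 18 (0.0515).

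Acute-phase genes, whose plasma proteins are made by hepatocytes during inflammation, were counted beside the metallothioneins because those genes share the interleukin 6 pathway with them. At day 0, 12 of 23 were lower in CCl4 livers and none was higher, where 1.11% of all genes were called lower, with a median log2 change of -2.09 against 0.01 over all genes. Hp, the haemoglobin scavenger haptoglobin, averaged 2290 ± 135 CPM in CCl4 livers and 10636 ± 3126 CPM in OO livers (SD, n = 2 each, edgeR adjusted p = 0.000965). In CCl4 livers at day 20 against day 0, 17 were higher and 1 lower with ethanol (median log2 change 1.65), where 11.6% of all genes were called higher and 9.11% lower. With chow 9 were higher and none lower (1.23), where 7.27% of all genes were called higher. Neither metallothionein was called there by edgeR, with log2 changes of 0.34 ± 0.65 SE for Mt1 and 1.10 ± 1.13 for Mt2. Between CCl4 and OO livers under ethanol 1 of 23 was higher, where 12.7% of all genes were. Ethanol against chow gave no call in this list by edgeR in CCl4 or OO livers, with medians of 0.61 and 0.14, where 1.27% and 3.64% of all genes were called. At an unadjusted p under 0.05 by edgeR there were 13 of 23 in CCl4 livers and 1 of 23 in OO livers. Of all 14778 genes tested, 1748 in CCl4 livers and 2786 in OO livers were under it. DESeq2 called 2 in CCl4 livers, where it called 412 of all genes, and 1 in OO livers. The 12 calls at day 0 became 4 without library 3 or 4 and 7 without library 1. Over day 0 the 17 with ethanol became 11 without library 3 or 4, and the 9 with chow became 4 without library 3 and 3 without library 4.

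NRF2 target genes of glutathione and quinone metabolism were counted because Mt1 and Mt2 also respond to oxidative stress. In OO livers at day 20, 7 of 16 were higher with ethanol and 1 lower, where 1.22% of all genes were called higher. Cbr3, a carbonyl reductase, averaged 26.4 ± 8.57 CPM in OO ethanol livers (SD, n = 3) and 0.869 CPM in the OO chow liver (edgeR adjusted p = 0.000998). Those 7 became 4 without library 15. In CCl4 livers ethanol gave no call in this list by edgeR or DESeq2, and 2 of 16 genes had an unadjusted p under 0.05, where 1748 of all 14778 genes tested did. Under ethanol 1 of 16 was higher and 10 were lower in CCl4 than in OO livers, with a median log2 change of -1.09. Of all genes 12.7% were called higher and 11% lower there. The part of NRF2 targets in the metallothionein levels was not tested. Of 11 copper-handling genes, 5 were lower and 1 higher in that comparison, where 11% of all genes were called lower. Ccs, the copper chaperone of superoxide dismutase, averaged 58.1 ± 0.662 CPM in CCl4 ethanol livers and 97.4 ± 9.99 CPM in OO ethanol livers (adjusted p = 0.00205). The 5 copper genes called lower became 3 without library 14, 15, 18 or 20. Of 14 glucocorticoid target genes edgeR called none at day 0 or with ethanol in CCl4 livers (2.06% and 1.27% of all genes). DESeq2 called 2 lower at day 0. With ethanol in CCl4 livers it called 1 higher and 2 lower, and 412 of all genes. In CCl4 livers with ethanol over day 0 edgeR called 3 higher and 2 lower, where 11.6% of all genes were called higher and 9.11% lower.

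Markers of other liver cells moved with the same comparisons. Over 10 Kupffer cell and macrophage genes the summed level was 497 to 517 CPM in CCl4 livers at day 0 and 795 to 885 CPM in OO livers at day 0, and 2 of 10 were called lower, where 1.11% of all genes were, which became 1 when any of the 4 libraries was left out. In CCl4 livers at day 20 it was 1697 to 2042 CPM with ethanol and 1445 to 1889 CPM with chow. Over 10 neutrophil genes the sum was 64.7 to 191 CPM in CCl4 livers with ethanol and 268 to 273 CPM in CCl4 livers with chow, against 8.5 to 16.7 CPM in CCl4 livers at day 0, where 1 to 4 of the genes were at 0. All 10 neutrophil genes were called higher over day 0 in both arms, where 11.6% of all genes were called higher with ethanol and 7.27% with chow, and 5 to 10 stayed called with any 1 library left out. Hepatocyte markers summed to 77997 to 83541 CPM in CCl4 livers at day 0, above the 51621 to 58774 CPM of OO livers at day 0. At day 20 they summed to 56096 to 67697 CPM in CCl4 livers with ethanol and 60614 to 76285 CPM in CCl4 livers with chow. Over day 0, 5 of 7 hepatocyte markers were called lower with ethanol and 2 of 7 with chow, where 9.11% and 4.2% of all genes were.

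Under ethanol at day 20, where Slc39a10, Slc39a6 and Nfe2l2 were higher in CCl4 than in OO livers, 9 of 10 neutrophil, 6 of 10 Kupffer cell, 6 of 9 stellate cell and 3 of 7 cholangiocyte markers were also called higher, where 12.7% of all genes were. In the same comparison 1 of 10 Kupffer cell, 2 of 7 hepatocyte and 1 of 8 endothelial markers were called lower, where 11% of all genes were. The neutrophil sum was 64.7 to 191 CPM in CCl4 livers and 14.4 to 26.2 CPM in OO livers, and the Kupffer cell sum was 1697 to 2042 CPM in CCl4 livers and 767 to 1009 CPM in OO livers. The stellate cell sum was 1149 to 1667 CPM in CCl4 livers and 464 to 634 CPM in OO livers, and the cholangiocyte sum was 391 to 602 CPM in CCl4 livers and 49.5 to 82.8 CPM in OO livers. Gene by gene the cholangiocyte markers rose less than their sum, with a median log2 change of 0.56 and 5 of 7 positive. The 9 neutrophil calls became 5 without library 15. Ethanol against chow in OO livers gave 6 of 10 Kupffer cell and 2 of 10 neutrophil genes called lower, where 2.42% of all genes were. The neutrophil sum was 14.4 to 26.2 CPM in the OO ethanol libraries and 93.3 CPM in the chow library, number 12. Those 6 Kupffer cell calls became 3 without library 15, and the 2 neutrophil calls became 1 without library 14 or 15. The part of all these cells in the metallothionein, Slc39a and Nfe2l2 differences was not tested.

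At day 23 a single ethanol library stood beside a single chow library, both OO, so the values have no replicate check and no test. Mt1 was 681 CPM in the ethanol library and 98 CPM in the chow library, and Mt2 was 298 CPM and 34.5 CPM in the same order, ratios of 6.96 and 8.62. Slc39a14 ran the other way, at 386 CPM with ethanol and 510 CPM with chow. Slc39a4 was 95 CPM with ethanol and 59.5 CPM with chow, and Slc30a1 was 83 CPM and 78.1 CPM. Slc30a10 was 34.3 CPM with ethanol, its lowest library, and 70.4 CPM with chow. The ethanol library is number 6, which carried the transcripts of pancreas and squamous epithelium described above, and their part in these values was not tested.

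Over the 15 libraries the genes most like Mt1 in log2 level were Serpina10 (Pearson's r = 0.96), Itih4 (0.94) and Fgl1 (0.92), among 12340 genes with at least 1 CPM on average. Mt2 came next at 0.91, and Slc39a14 ranked 38 at 0.82. For Mt2 the nearest were Itih4 (0.93), Fgl1 (0.91) and Mt1 (0.91). Itih4 encodes an acute-phase inhibitor heavy chain, and Fgl1 and Serpina10 encode proteins that hepatocytes secrete. Slc39a14 was nearest to Taf6l (0.92), Alpk1 (0.89) and Lpgat1 (0.88). Slc39a4 was nearest to Pcgf2 (0.89), Rnpep (0.87) and Trim7 (0.83), Slc30a1 to Trim80 (0.84), Ypel5 (0.82) and Gpt2 (0.81), and Slc30a10 to Hc (0.88), Nup155 (0.87) and Atad2b (0.87). Between Mt1 and the other 3 transporters r was 0.42 for Slc30a1, 0.36 for Slc39a4 and -0.01 for Slc30a10. These values describe 15 libraries that share groups and depth, and carry no test.

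**Figure D5:**
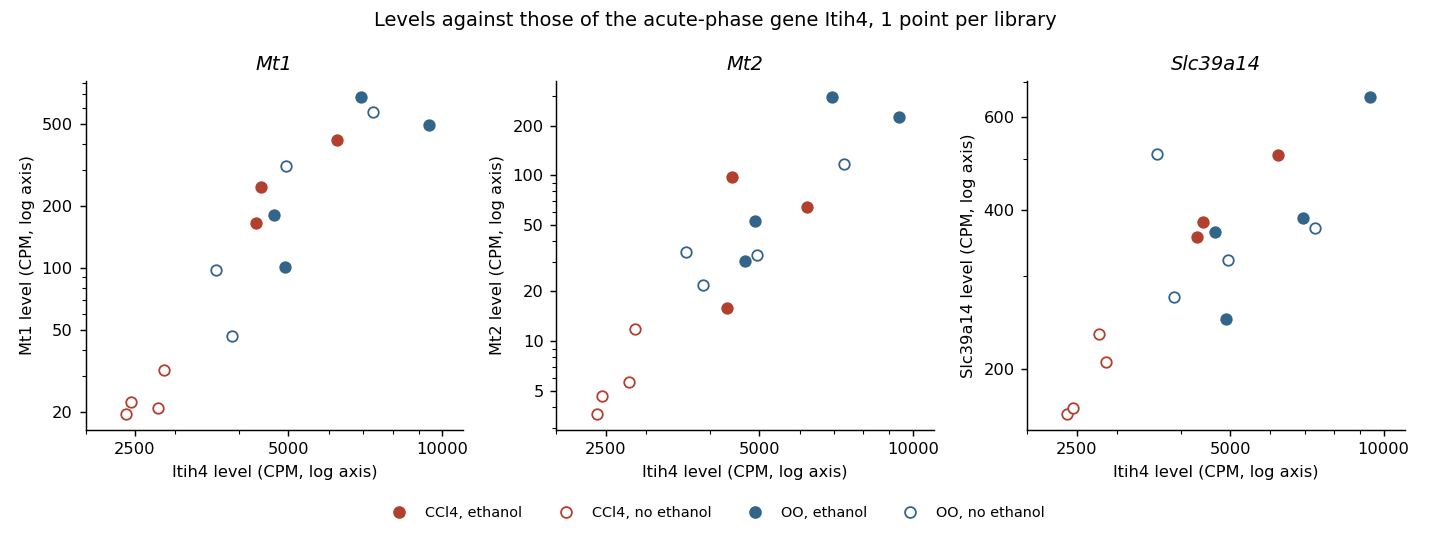
Level of Mt1, Mt2 and Slc39a14 against that of Itih4, all in CPM on log axes, 1 point per library; red points are CCl4 livers, blue points OO livers and filled points ethanol livers. The 4 CCl4 livers without ethanol lie at the low end of both axes, and library 5, an OO chow liver, has a Slc39a14 level of 510 CPM at a low Itih4 level of 3598 CPM.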

How the data were processed

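Raw read counts per gene symbol were deposited, 1 table per library. The authors made them from TruSeq mRNA libraries of liver RNA, per the labels' protocols, with GSNAP on mm10, per the submitters' processing notes, which also name DESeq2 1.12.3. Counting program, annotation and strand setting: not given in the sources used here. Reads without a gene, 47% to 58.6% of those listed, stand in 5 separate entries per table and were left out. Reads with more than 1 alignment, 18.1% to 28.8% of those listed, are among these, so counts of genes with near-identical copies may be too low.

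Libraries were grouped by the labels' treatment and day. Where table names say 28D and labels day 20 or 23, the labels decided. No pair of replicates agreed within counting error (chi-square per degree of freedom at least 3.93). In edgeR 4.0.16 (R 4.3.3), filterByExpr kept 14778 genes, TMM gave the library sizes, and all 15 libraries entered a single fit with 1 mean per group and 7 residual degrees of freedom. A group with 1 library is assumed to vary like the others. Comparisons were tested by the quasi-likelihood test with Benjamini-Hochberg adjustment over all genes tested, and an adjusted p under 0.05 is a call. Error after a mean is SD between libraries, and error after a log2 change is SE. The test was checked on simulated counts. Alternatives used DESeq2 1.42.0, limma-voom 3.58.1 and other scalings, filters and library sets.

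The members, gene lists and rules were chosen with earlier results of these data known. Named genes are the 6 members, other metallothionein, transporter and regulator genes called in any comparison, the gene or pair with the smallest adjusted p of a list described, and the 3 genes nearest to each member. Krt4, Krt13, Mtf1, Keap1, Slc30a3 and Slc30a5 were chosen after their values were seen. The contrast of CCl4 effects between stages was added after the data were seen. Promoters come from RefSeq (GRCm38.p6) and coding sequences from GENCODE M21, which holds 23680 of the 24499 symbols. Slc39a14 and Slc39a4 are named without a promoter.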

Additional observations from a re-analysis of the deposited data

Results flagged for a closer look

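Slc39a4 was flagged because CCl4 livers lay below OO livers at day 0 and above the OO liver under chow at day 20, with no overlap in either. How many of all genes meet this rule was not counted. The log2 ratio of group means was 0.45 under chow at day 20 and -0.87 at day 0, a difference of 1.32. In the fit the difference was 1.32 ± 0.33 SE, with an unadjusted p of 0.00173 and an adjusted p of 0.275 by edgeR's quasi-likelihood test, so it did not pass. The day 20 chow side of OO is the single library 12.

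Slc39a14 was flagged because the ethanol library lay below the chow library at day 23 in OO livers, while all ethanol libraries lay above all chow libraries in CCl4 livers at day 20. The log2 ratio of means was -0.40 at day 23 and 0.92 in CCl4 livers, a difference of -1.32. It was not tested, since day 23 has 1 library per arm. Single libraries lie apart for almost any gene, and how many of all genes meet this rule was not counted.

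Mt4, a metallothionein known from stratified epithelium, had 39 counts in library 6, the day 23 OO ethanol liver that enters no tested comparison. It had 0 counts in the day 23 chow library and at most 1 count in the other libraries. The same library held 1764 counts of Krt13 and 1887 of Krt4, keratins of squamous epithelium, against at most 1 and 28 counts in the others. Their part in the Mt4 count was not tested.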

How the results depend on the processing

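Each value of the 6 genes was recomputed under other scalings, filters, tools and library sets, 660 refits in all. Of these 608 kept their direction and their side of the threshold, 16 lost a call, 10 gained one and 26 changed sign. Mt1 stayed called over day 0 in CCl4 livers with ethanol under 12 of 12 alternatives, Mt1 at day 0 under 9 of 11, Mt1 with ethanol in CCl4 livers under 8 of 12, Mt2 over day 0 under 8 of 12 and Slc39a14 over day 0 under 10 of 12. The number of members called at day 0 was 3 without a filter, 4 by DESeq2 and 5 when only the compared libraries were fitted, and under chow between CCl4 and OO it was 1 in such a fit. Fitting only the compared libraries also called more of all genes: 2240 at day 0 against 304 in the main fit. Under chow that fit called 378 of all genes against 28. Leaving out 1 library at a time gave 0 to 1 members at day 0, 0 to 1 with ethanol in CCl4 livers, 0 to 1 for CCl4 with chow over day 0, and 1 to 4 for CCl4 with ethanol over day 0.

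The values that changed sign belonged to uncalled genes. For CCl4 against OO under chow Slc30a1 was 0.01 with RLE scaling, with no filter and by DESeq2. For CCl4 against OO under ethanol Slc39a14 was 0.05 by limma-voom, 0.01 on the compared libraries and 0.01 with days 20 and 23 merged, which gave -0.39 for Mt1. With library 5 as the chow control, ethanol in OO livers gave -0.27 for Slc39a14 and -0.50 for Slc30a1, and CCl4 with ethanol against OO chow gave -0.30 for each. With both chow libraries, ethanol in OO livers gave -0.15 for Slc30a1. Leaving out 1 library at a time gave ranges that crossed 0 for Mt1 (-0.32 to 0.99), Mt2 (-1.36 to 0.48) and Slc39a14 (-0.30 to 0.44) between CCl4 and OO under ethanol. Such ranges were -0.25 to 0.18 for Slc30a1 at day 0, -0.20 to 0.15 for Slc30a1 between CCl4 and OO under chow, -0.06 to 0.19 for Slc30a10 with ethanol in CCl4 livers, -0.01 to 0.61 for Mt1 in CCl4 livers with chow over day 0, -0.07 to 0.24 for Slc39a4 in CCl4 livers with ethanol against OO chow, and -0.05 to 1.79 for the Mt2 interaction.

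The number of all genes called moved by over 1.5 times. It was 304 at day 0 (231 to 2240 over alternatives, 52 to 121 with a library left out), 538 with ethanol in OO livers (16 to 1139, and 253 to 1554), 187 with ethanol in CCl4 livers (99 to 412, and 49 to 141), 28 for CCl4 under chow (28 to 378, and 11 to 20), 414 for CCl4 with ethanol against OO chow (137 to 1576, and 222 to 641), 2 for the interaction (0 to 152, and 0 to 21), 1694 over day 0 with chow (1625 to 2355, and 262 to 796), 3059 over day 0 with ethanol (2815 to 3716, and 1190 to 3230) and 3509 for CCl4 under ethanol (2319 to 4151, and 2223 to 3981). The cause was not tested. No paired analysis was possible because each library has a number of its own. Libraries 6 and 12 left out together, an alternative chosen after seeing the data, changed no call of the members in the 5 comparisons without library 12; the other 4 cannot be fitted without it. The OO chow arm at day 20 and each arm at day 23 have 1 library, whose own spread is unknown.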
